A study of Mus musculus with 6 samples.

Results

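The genes described here are 10 markers of the supporting (type II) cells of the carotid body and of the glia of peripheral nerve that do not make myelin: S100b, Gfap, Sox10, Sox2, Cdh19, Fabp7, Erbb3, L1cam, Ncam1 and Foxd3. They were taken by name, and every probe set that the array's annotation gives to one of these symbols alone was used. All 10 genes were found, with 23 probe sets, among 18193 genes named this way. The carotid body, a small organ beside the carotid artery, senses the oxygen content of arterial blood. Its RNA was compared between 2 inbred strains, A/J and DBA/2J, with untreated males of 28 days from the Jackson Laboratory. There were 3 arrays of each strain. The A/J arrays carried RNA pooled from 20, 21 and 19 mice, and the DBA/2J arrays from 19, 18 and 19 mice. Between 36 and 42 carotid bodies went into a pool, which makes the array-to-array spread one between pools and not between animals. The study asked how gene expression in this organ differs by strain.

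In the carotid body the oxygen-sensing type I cells lie in clusters wrapped by type II cells, which carry glial proteins such as S100B and GFAP and can act as stem cells of the organ. The nerve bundles that enter it hold Schwann cells, some around single myelinated axons and others around groups of thin unmyelinated axons. Both kinds of glia come from the neural crest, in which SOX10 and FOXD3 are active, and depend on neuregulin signals received by ERBB3. None of the 10 genes is particular to type II cells, since Schwann cells of the nerve express nearly all of them and NCAM1 is also made by type I cells and neurons.

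Promoter sequences from RefSeq (build GRCm38.p6) were matched for 6 of the 10 genes: S100b, Gfap, Sox2, Fabp7, L1cam and Foxd3. Those of S100b, Fabp7 and Sox2 are shown because, in the fit to all 6 arrays, these 3 genes were lower in mean in DBA/2J by nearly the same amount. Their single arrays overlapped between the strains. Sox10, by its brightest probe set, differed by a like amount but had no matched promoter. None of these differences passed the strain test given below, and their sizes changed when single arrays were left out. Each runs from 250 bases before the gene's start to 50 bases after it, 5′ to 3′ along the gene. Capitals mark the letters ACAAAG or ACAAT on either strand, the core read by SOX factors.
S100b, chr10:76253586-76253885, plus strand: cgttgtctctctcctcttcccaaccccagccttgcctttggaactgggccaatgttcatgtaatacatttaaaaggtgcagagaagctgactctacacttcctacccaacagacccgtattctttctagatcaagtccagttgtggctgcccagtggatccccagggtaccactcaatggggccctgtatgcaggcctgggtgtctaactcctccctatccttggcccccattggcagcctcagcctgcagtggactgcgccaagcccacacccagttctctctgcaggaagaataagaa
Fabp7, chr10:57784673-57784972, plus strand: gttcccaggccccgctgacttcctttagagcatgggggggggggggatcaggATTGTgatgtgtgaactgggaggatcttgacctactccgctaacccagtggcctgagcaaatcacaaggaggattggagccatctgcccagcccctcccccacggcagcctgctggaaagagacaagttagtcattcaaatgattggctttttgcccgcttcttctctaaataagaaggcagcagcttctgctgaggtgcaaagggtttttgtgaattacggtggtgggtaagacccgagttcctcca
Sox2, chr3:34649745-34650044, plus strand: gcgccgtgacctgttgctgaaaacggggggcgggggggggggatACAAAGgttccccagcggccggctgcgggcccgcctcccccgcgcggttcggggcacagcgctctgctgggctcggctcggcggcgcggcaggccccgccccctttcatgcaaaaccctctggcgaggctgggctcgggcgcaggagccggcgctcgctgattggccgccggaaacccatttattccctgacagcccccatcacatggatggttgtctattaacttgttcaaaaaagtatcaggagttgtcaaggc

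ACAAAG was found once in the Sox2 window, and ACAAT once, on the opposite strand, in the Fabp7 window. The S100b window held neither. Of all 32851 promoter windows of this length, 18.7% hold ACAAAG and 31.0% hold ACAAT on either strand, so a match is common. These letters are a description of the windows and not of binding.

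None of the 10 glial genes passed the test of the strain difference at an adjusted p of 0.05, in either direction. By sign alone, 7 genes were on the lower side in DBA/2J and 3 on the higher side, with a median log2 difference (DBA/2J minus A/J, of log2(signal + 16)) of -0.38, where the median over 13006 genes tested was 0.03. The 2 genes nearest to the threshold pointed in opposite directions. Cdh19 had the most negative log2 difference of the 10 genes, at -0.83, and Ncam1 the most positive, at 0.93. For comparison, limma called 1.6% of all genes lower and 2.17% higher in DBA/2J (of probe sets 1.41% lower and 1.86% higher), and 47% of all genes had a negative difference. At an unadjusted p under 0.05 there were 3 of the 10 genes (S100b, Cdh19 and Ncam1), against 17.1% of all genes. By a stand-in for the rule that the series states (6 of 9 array pairs at 1.5-fold and a p under 0.05), Cdh19 was called lower, Ncam1 was called higher, and 3 of their and S100b's probe sets passed in all. That rule called 4.86% of all probe sets lower and 5.23% higher. One probe set, the one with the highest mean, stands for each gene in these counts, and 17 of the 23 probe sets were bright enough to be tested. In pooled tissue, fewer cells of a type and less RNA per cell cannot be told apart.

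**Figure D1:**
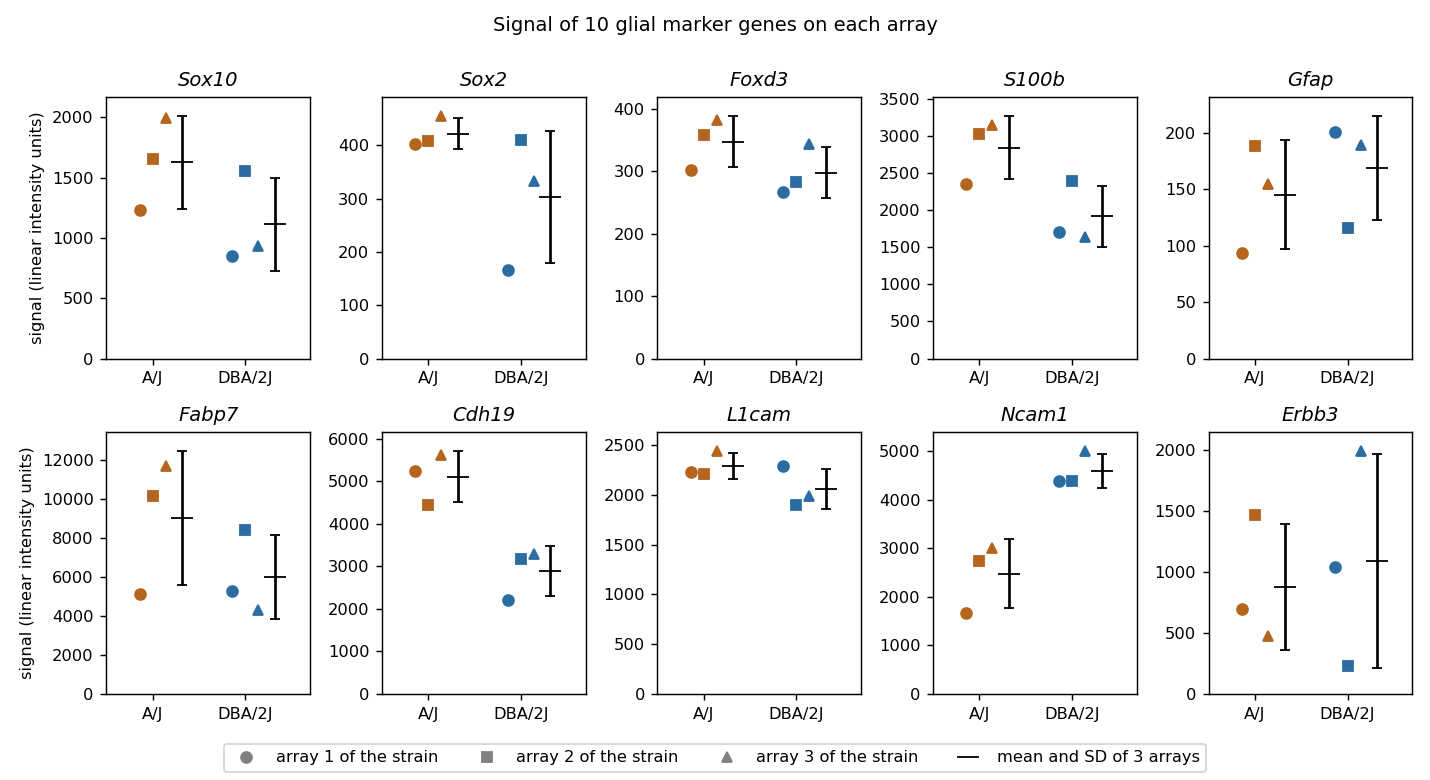
Signal in linear intensity units on each of the 6 arrays for the 10 genes, with 3 points for A/J, 3 for DBA/2J and the mean and SD of each strain beside them. The strains are separated in Cdh19 (DBA/2J below) and Ncam1 (DBA/2J above) and overlap in the other 8 panels.

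The arrays also differed in other ways, whose part in these values was not tested. The summed signal of 20 skeletal muscle genes was 0.191% to 0.483% of all signal for A/J but 0.00719% to 0.0131% for DBA/2J, and that of 20 type I cell genes 0.124% to 0.148% and 0.254% to 0.290%. Of these lists, 19 of 19 tested muscle genes were called lower in DBA/2J, and 10 of 19 tested type I genes higher and 0 lower. Across probe sets, DBA/2J arrays 2 and 3 correlated with each other at 0.939, below their highest correlation with an A/J array (0.941 for array 2 and 0.943 for array 3). The ratio of the 3′ to the 5′ control probe set of Gapdh, which rises as RNA or amplified product gets shorter, was 4.87 on A/J array 2, 3.28 on DBA/2J array 2 and from 1.73 to 2.50 on the other 4.

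Among the transcription factors, SOX10 sets and keeps glial identity in the neural crest lineage. Its brightest probe set (1451689_a_at) read 1229.1, 1656.9 and 1994.2 for A/J and 848.3, 1556.1 and 929.7 for DBA/2J, each in the order of arrays 1, 2 and 3, as below. DBA/2J arrays 1 and 3 lay below all A/J arrays, while DBA/2J array 2 lay inside the A/J range. The log2 difference was -0.57 (SE 0.28, 95% interval -1.19 to 0.06, limma adjusted p = 0.384). The other tested probe set of Sox10 (1424985_a_at) was level, at 421 ± 24.5 for A/J and 411 ± 52.2 for DBA/2J (SD, n = 3), a log2 difference of -0.04 with an interval from -0.47 to 0.40. A dim probe set (1425369_a_at), not tested, read 47.8, 30.3 and 86.2 for A/J and 11.5, 15.6 and 9.9 for DBA/2J. There the strains did not overlap, and a fit without the filter gave -1.25 (limma adjusted p = 0.129). The 3 probe sets of Sox10 thus gave no single size of difference.

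Sox2 encodes a factor of neural progenitors that is also made by satellite glia and by immature and repair Schwann cells. It has 1 probe set, which read 402.7, 407.7 and 455.2 for A/J and 166.5, 409.5 and 333.6 for DBA/2J. The A/J arrays were close together, and the lower DBA/2J mean came mostly from array 1. Its log2 difference was -0.54 (SE 0.31, 95% interval -1.23 to 0.15, limma adjusted p = 0.469), and without DBA/2J array 1 it was -0.18. Foxd3, a factor of early neural crest, read 301.6, 358.4 and 381.5 for A/J and 266.4, 282.2 and 344 for DBA/2J. Its strains overlapped and its log2 difference was -0.21 (95% interval -0.68 to 0.25), which leaves room for a fall of up to that lower bound.

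Of the proteins used to stain type II cells, S100B, a small calcium-binding protein of glia that is also made by adipocytes, had the steadier record. Its brighter probe set (1434342_at) read 2356, 3021.5 and 3150.4 for A/J and 1708.1, 2394.8 and 1644.7 for DBA/2J. Only DBA/2J array 2 reached the A/J range, lying just above A/J array 1. This gave a log2 difference of -0.57 (SE 0.21, 95% interval -1.05 to -0.10, unadjusted p = 0.0231, limma adjusted p = 0.221). The dimmer probe set (1419383_at), with 372 ± 50.7 for A/J and 239 ± 92.4 for DBA/2J, gave -0.66 (limma adjusted p = 0.291). Both probe sets of S100b were thus lower in mean in DBA/2J, by like amounts, and neither passed. Of the adipocyte list, 3 of 12 tested genes were called lower and 0 higher in DBA/2J, with 0.244% to 0.327% of all signal for A/J and 0.135% to 0.198% for DBA/2J, and their part in the S100b values was not tested.

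Gfap, the intermediate filament of astrocytes and of many unmyelinated Schwann cells, was dim and its probe sets leaned the other way. The probe set that stands for it (1426509_s_at) read 93.3, 187.7 and 154.4 for A/J and 200.5, 115.8 and 189.4 for DBA/2J. The strains overlapped almost fully, with a log2 difference of 0.21 (95% interval -0.50 to 0.92, limma adjusted p = 0.829). The second (1426508_at) read 109 ± 12.8 and 175 ± 74.7 and gave 0.53 (limma adjusted p = 0.545), with DBA/2J array 2 below all A/J arrays and the others above them. The third (1440142_s_at) was too dim to be tested, at 78, 31.1 and 40.8 for A/J and 298.5, 142.8 and 197.4 for DBA/2J. All DBA/2J arrays were above all A/J arrays there, with a log2 difference of 1.80 and a limma adjusted p of 0.0602 with no filter. No detection call was used here, so whether signals as low as those of A/J stand above background is unknown.

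Fabp7, the brain-type fatty acid binding protein of radial glia, satellite glia and immature Schwann cells, varied widely inside each strain. It read 5120.6, 10159.8 and 11675.5 for A/J and 5263.4, 8378 and 4273.7 for DBA/2J. A/J array 1 was as low as the lower DBA/2J arrays, and DBA/2J array 2 was inside the A/J range. Its strain difference on the log2 scale was -0.56 (SE 0.34, 95% interval -1.32 to 0.20, limma adjusted p = 0.502). Without A/J array 1 it was -0.92 and without A/J array 3 it was -0.33, and it did not pass in either case.

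Cdh19 encodes a cadherin of Schwann cell precursors and of non-myelinating glia. By the probe set that stands for each gene, Cdh19 was the only one of the 10 with all DBA/2J arrays below all A/J arrays. This pattern was seen in 9.69% of all genes tested. Its probe set read 5239.4, 4447 and 5616.2 for A/J and 2212, 3169.2 and 3281.5 for DBA/2J. The highest DBA/2J array was well under the lowest A/J array. The log2 difference was -0.83 (SE 0.20, 95% interval -1.29 to -0.38), with an unadjusted p of 0.00243 and a limma adjusted p of 0.0632 over all 27022 probe sets. Cdh19 passed in 4 of 19 alternative fits and did not pass in the other 15. With array weights, which called 3007 probe sets against 883 in the main fit, its adjusted p was 0.00407. With no intensity trend its adjusted p was 0.104, and with no filter 0.0931. With 1 probe set per gene, fitted and adjusted over the 13006 genes, an alternative added after seeing the data, its adjusted p was 0.0472, and 249 genes (1.91%) were then called lower. Without DBA/2J array 2, adjusted over all probe sets, it was 0.0471, and without any of the other 5 arrays it lay between 0.0791 and 0.235. In the pairs of arrays that share a number in their titles, DBA/2J minus A/J was -0.49 for the arrays 2 and -0.77 for the arrays 3.

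Ncam1 and L1cam encode adhesion molecules of the immunoglobulin superfamily by which axons and non-myelinating Schwann cells hold to each other. Ncam1 had the most probe sets, 7, of which 5 were tested. The brightest (1426864_a_at) read 1665.9, 2742 and 3013.1 for A/J and 4376.7, 4394.1 and 4993.6 for DBA/2J. By the probe set that stands for each gene, Ncam1 was the only one of the 10 with all DBA/2J arrays above all A/J arrays. Of all genes tested, 13% had this pattern. On the log2 scale the difference was 0.93 (SE 0.23, 95% interval 0.40 to 1.46), with an unadjusted p of 0.00311 and a limma adjusted p of 0.0736. The pairs of arrays with a shared title number gave 0.68 for the arrays 2 and 0.73 for the arrays 3.

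The other probe sets of Ncam1 did not all follow. One (1426865_a_at) gave 0.51 and another (1425126_at) 0.40, while a further one (1450437_a_at), at 345 ± 119 for A/J and 237 ± 19.3 for DBA/2J, gave -0.46. None of these passed, their limma adjusted p running from 0.455 to 0.704. The probe set 1439556_at read 152.1, 382.1 and 151.8 for A/J and 903.6, 88.4 and 1206 for DBA/2J. DBA/2J arrays 1 and 3 were above all A/J arrays and DBA/2J array 2 below all of them. Its log2 difference was 1.13 (SE 0.81, limma adjusted p = 0.599), and without DBA/2J array 2 it was 2.24 and passed (limma adjusted p = 0.0112). The 2 untested probe sets of Ncam1 (1450438_at and 1421966_at) had overlapping strains, at 84.4 ± 44.0 and 24.0 ± 9.92 for A/J and 99.2 ± 18.9 and 18.2 ± 5.24 for DBA/2J. Type I cells also make NCAM1, and the summed signal of their markers given above was higher on every DBA/2J array than on any A/J array. Its part in the Ncam1 values was not tested.

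L1cam, by its brightest probe set, had the smallest range of the 10 genes. It read 2225, 2208.6 and 2436 for A/J and 2286.1, 1894.9 and 1992.5 for DBA/2J. The highest array was 1.29 times the lowest, and the strains overlapped through DBA/2J array 1. The log2 difference was -0.16 (SE 0.17, 95% interval -0.54 to 0.22, limma adjusted p = 0.745), so a fall larger than that lower bound lies outside the interval. Its second probe set was near the bottom of the scale, from 3.5 to 42.8 over the 6 arrays.

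Erbb3, the receptor through which neuregulin keeps Schwann cells and their precursors alive, had the widest range. Its brighter probe set (1434606_at) read 691.5, 1461.5 and 477.6 for A/J and 1041.9, 232.4 and 1986 for DBA/2J. The lowest and the highest of the 6 values were both DBA/2J arrays, 8.55-fold apart. These gave a log2 difference of 0.01 with an SE of 0.69 and a 95% interval from -1.54 to 1.56, so these arrays do not tell even a large difference in either direction from none. The arrays 2 gave -2.57 and the arrays 3 gave 2.02. The dim probe set (1452482_at) read from 8.6 to 22.4 for A/J and from 19.2 to 31 for DBA/2J.

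**Figure D2:**
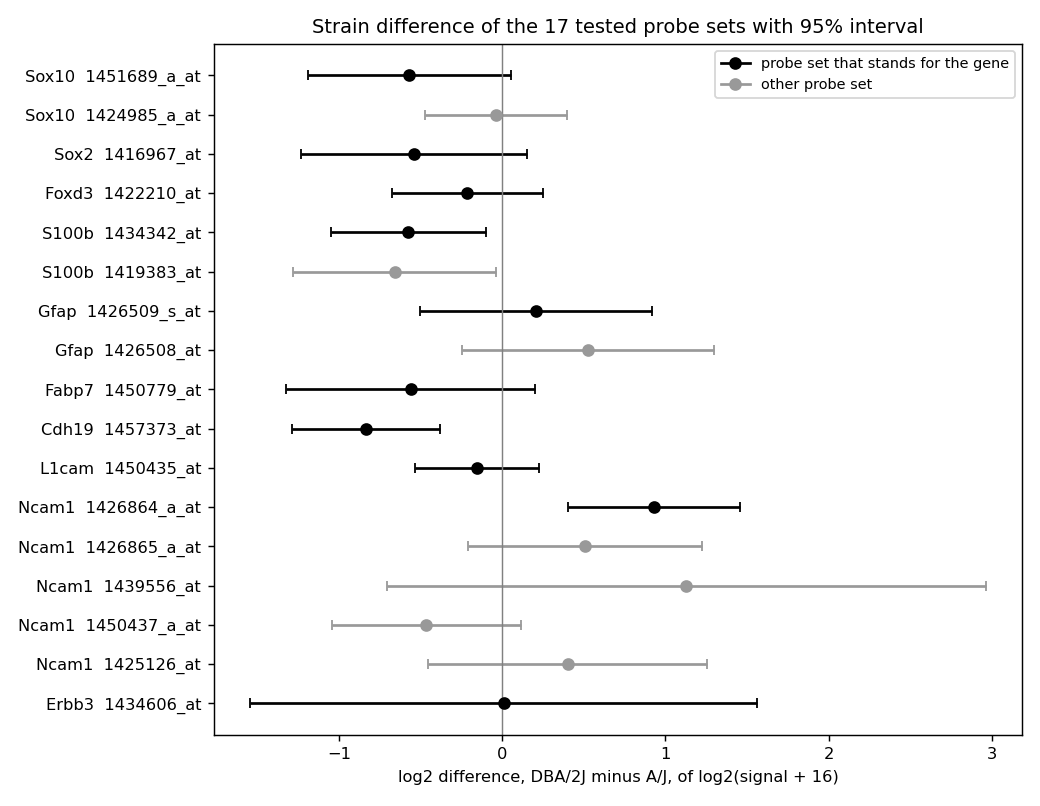
Log2 difference DBA/2J minus A/J of log2(signal + 16) for the 17 tested probe sets, with 95% intervals from limma; black points stand for the gene and grey ones are its other probe sets. The intervals of Cdh19, of both S100b probe sets and of the brightest Ncam1 probe set leave out 0 before adjustment, and the Erbb3 interval is the widest of the black ones.

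Inside each strain, several of the genes ranked the arrays alike by the probe set that stands for each gene. A/J array 1 was the lowest A/J array for 7 genes (S100b, Gfap, Sox10, Sox2, Fabp7, Ncam1 and Foxd3), and A/J array 3 the highest for 8, all but Gfap and Erbb3. Among the DBA/2J arrays, array 2 was the highest for S100b, Sox10, Sox2 and Fabp7 and the lowest for Gfap, Erbb3 and L1cam. S100b, Sox10, Sox2 and Fabp7 therefore shared, by these probe sets, both their lowest and highest A/J array and their highest DBA/2J array. For Sox2, A/J arrays 1 and 2 were close (402.7 and 407.7). The other tested probe set of Sox10 shared these positions. That of S100b was instead lowest on A/J array 3 (315.2) and highest on A/J array 2 (412.7). How many of all genes order the arrays this way was not counted. A/J array 1 carried the most skeletal muscle signal (0.483%), A/J array 3 carried 0.416%, and A/J array 2 the least of the A/J arrays (0.191%). The summed signal of the 10 genes was 0.0615%, 0.0859% and 0.0949% of all signal for the A/J arrays, against 0.0596%, 0.0737% and 0.0683% for those of DBA/2J, and these ranges overlap. The part of the muscle signal in this order was not tested.

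**Figure D3:**
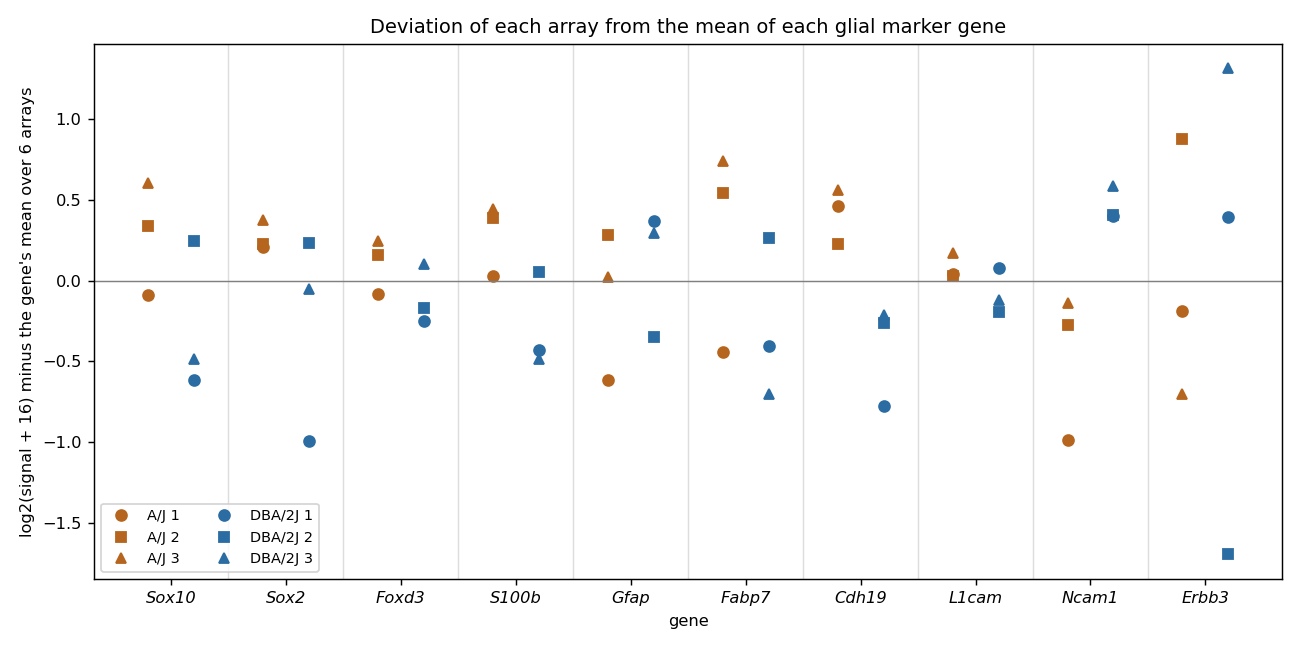
Log2(signal + 16) of each array minus the gene's mean over the 6 arrays, with A/J in brown, DBA/2J in blue and a marker shape for each array number. Erbb3 is the most scattered, from DBA/2J array 2 at the bottom to DBA/2J array 3 at the top, L1cam is the tightest, and DBA/2J array 2 lies above the other DBA/2J arrays in Sox10, Sox2, S100b and Fabp7.

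By the fixed rule for likeness, the 5 genes whose 6 values followed the mean centred level of the 10 genes most closely were Morc4, Prkag1, Stard13, Tspan5 and F11r. Their Pearson correlations over 6 arrays ran from 0.979 to 0.994. They are given as a description, picked as the highest over all genes tested on the same 6 arrays. None of the 5 passed the strain test, with log2 differences from -0.64 (F11r) to -0.19 (Tspan5).

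Other genes of glia lay on the lower side in DBA/2J as a rule, with 1 passing in each list. Of 13 tested myelin genes, 1 was called lower, 0 were called higher and 12 did not pass. By the probe set that stands for each gene, all 13 had negative differences, with a median of -0.49. Other tested probe sets of Mbp ran from -1.16 to 0.46, and those of Cnp from -0.63 to 0.095. The gene called lower was Ugt8a, which makes the myelin lipid galactosylceramide. Its signal went from 656 ± 101.2 to 128 ± 14.4 (SD, n = 3, log2 difference -2.22, SE 0.21, limma adjusted p = 0.000820). Mag, the myelin-associated glycoprotein, singled out after its values were seen, had 491 ± 64.9 and 257 ± 50.1 (log2 difference -0.90, limma adjusted p = 0.0644). Of 15 tested genes of immature and non-myelinating Schwann cells, satellite cells and repair glia, 1 was called lower and 0 higher while 14 did not pass, with 13 negative and a median of -0.48. Scn7a, a sodium channel of non-myelinating Schwann cells, fell from 10776 ± 1129 to 6445 ± 263 (log2 difference -0.74, limma adjusted p = 0.0294), and of its other probe sets the one nearer to 0 gave -0.57. Glul, the glutamine synthetase of satellite glia, had 9564 ± 1661 and 4754 ± 2219 (log2 difference -1.10, limma adjusted p = 0.112). The 2 genes of this list on the higher side were Cadm1 (log2 difference 0.70, limma adjusted p = 0.0809) and Gap43 (0.60, limma adjusted p = 0.253). In Cadm1 all DBA/2J arrays lay above all A/J arrays. The median of the 10 genes described here, -0.38, lay near those of both lists, and the lists were not tested against each other. Negative medians were not particular to glia. The salivary and epithelial list had a median of -0.48 (6 of 7 tested genes negative) and the adipocyte list one of -0.85 (12 of 12).

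Genes listed with the neuregulins and ERBB receptors were mixed. Of 10 tested genes of this list, 1 was called lower and 0 higher while 9 did not pass. The differences of 6 were negative and of 4 positive, with a median of -0.19. Adgrg6, an adhesion receptor that Schwann cells need to start myelination, fell from 1231 ± 255 to 427 ± 107 (log2 difference -1.50, SE 0.25, limma adjusted p = 0.0123), with another probe set at -0.93. Adgrg6 is neither a neuregulin nor an ERBB receptor, and no tested gene that is either was called. Errfi1 lay on the higher side, at 0.72 (limma adjusted p = 0.0688). The ERBB3 partner Erbb2, the receptor Erbb4 and the ligands Nrg1 and Nrg3 were too dim to be tested. Erbb2 read 111 ± 74.0 for A/J and 139 ± 10.1 for DBA/2J, and Nrg1 56.2 ± 8.34 and 41.7 ± 25.8.

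Genes that act with NCAM1 and L1CAM were likewise mixed. Of 14 tested, 1 was called higher and 0 lower while 13 did not pass. The differences of 9 were negative and of 5 positive, with a median of -0.17. Cntn1, a contactin of the axon surface, rose from 1318 ± 343 to 2929 ± 629 (log2 difference 1.16, SE 0.25, limma adjusted p = 0.0391), while its other probe sets ran from -0.47 to 0.95. St8sia2, which adds polysialic acid to NCAM1 and was singled out after its values were seen, had 436 ± 45.0 for A/J and 733 ± 139 for DBA/2J (log2 difference 0.71, limma adjusted p = 0.131). Its arrays did not overlap between the strains. Fgfr1, Ank3 and Chl1 did not overlap either, with DBA/2J below. Their log2 differences were -0.78, -0.64 and -0.50 (limma adjusted p = 0.0966, 0.275 and 0.154). Of 11 tested neural crest transcription factors, 0 rose and 0 fell by limma, with 3 at an unadjusted p under 0.05 and a median of -0.35. Snai2, a factor of crest cells that leave the epithelium, had the largest difference, with 783 ± 443 and 1462 ± 257 (log2 difference 1.02, limma adjusted p = 0.207).

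**Figure D4:**
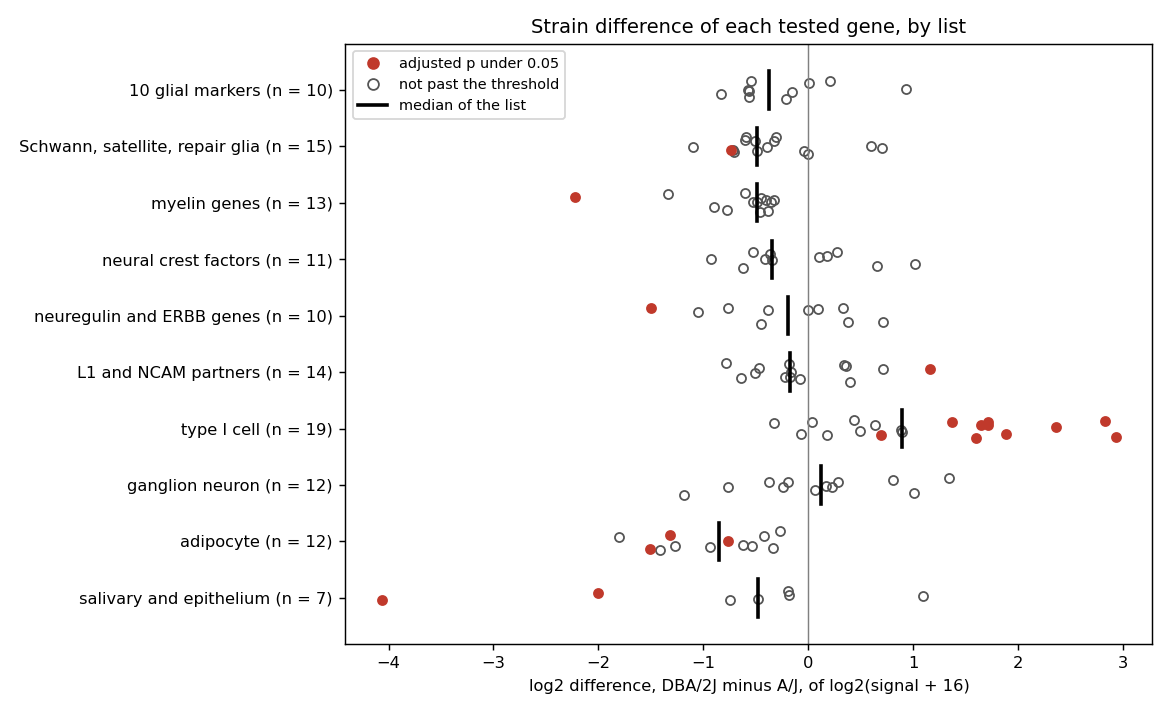
Log2 difference DBA/2J minus A/J of log2(signal + 16) for every tested gene of 10 lists, filled where the limma adjusted p was under 0.05, with a bar at each list's median. The glial markers and both other glial lists have medians from -0.49 to -0.38. The adipocyte list has a median of -0.85, the salivary and epithelial list one of -0.48 and the type I cell list one of 0.89.

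Markers of other cells in the sample were as follows. In the type I cell list the median was 0.89, and Insm1, Scg2 and Chgb rose by log2 differences of 2.93, 1.71 and 1.60. Of 12 tested ganglion neuron genes, 0 were called by limma and 4 had an unadjusted p under 0.05, with a median of 0.12, the largest difference being in Isl1 (1.34, limma adjusted p = 0.121). In the adipocyte list Fabp4, Gpd1 and Ucp1 fell, with log2 differences of -0.77, -1.51 and -1.31, and in the muscle list so did Ckm, Mylpf and Pvalb, with -6.34, -5.85 and -4.90. Of 7 tested salivary and epithelial genes, Smr2 (log2 difference -4.06) and Epcam (1754 ± 774 for A/J and 432 ± 222 for DBA/2J) fell and 0 rose. The summed signal of that list was 0.0257% to 0.0339% of all signal for A/J, against 0.00684% to 0.0102% for DBA/2J. Salivary epithelium can express Sox10, Sox2 and Erbb3, and its part in their values was not tested.

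Lists of other cells that carry glial or SOX10-driven genes held no called gene by limma. Of 5 tested melanocyte genes 1 had an unadjusted p under 0.05, Mitf at a log2 difference of 0.57 (limma adjusted p = 0.163), and Mlana was too dim to be tested. Of 4 tested genes of central nervous glia 2 had an unadjusted p under 0.05, the largest difference being in Aldh1l1 (-0.65, limma adjusted p = 0.167). The oligodendrocyte genes Olig2 and Mog were near the bottom of the scale, at 2.33 ± 0.757 and 23.1 ± 7.41 for A/J and 6.10 ± 3.24 and 21.2 ± 6.46 for DBA/2J. Endothelial and fibroblast lists had medians of 0.11 and -0.15, with Kdr at 0.69 (limma adjusted p = 0.0982) and Slc2a1, a glucose transporter also found in the perineurium, at -0.75 (limma adjusted p = 0.0811), and 2 of 8 and 3 of 9 genes at an unadjusted p under 0.05.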

How the data were processed

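RNA was measured on Affymetrix Mouse 430 2.0 arrays, after Trizol extraction and repeated cDNA synthesis and in vitro transcription, per the labels' protocols. The deposited values are linear intensity signals from 0.1 to 27051. Their trimmed mean (trimming 2% at each end), averaged over the arrays, was 500.0, which was taken as scaling by the authors to that value. In the sources used here the software is not given. Median signals ran from 163.6 to 183, so no further normalization was applied.

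Of 45101 probe sets, 64 controls were left out. Names came from GEO's platform annotation, updated by gene identifier through RefSeq (GRCm38.p6): 34945 probe sets name 1 gene, 932 several, and 9160 are unnamed here. The upper 60% by mean log2(signal + 16), 27022 probe sets, were fitted with limma 3.58.1 in R 4.3.3 (lmFit, eBayes with trend, two-sided), and p was adjusted by Benjamini-Hochberg over all of them. Figures were drawn with matplotlib 3.10.9. The fitting step was run on simulated data with independent errors. Those data held no differences in tissue content or RNA quality between arrays, so the run does not bear on such differences. Nothing says that the pools came from separate dissections, so p-values measure the spread between these pools. With 3 arrays a strain, their number limits how precise any value is.

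Members and lists were chosen with earlier results of these data known. Besides the members, called genes of each list (up to 3 by adjusted p) and, with fewer than 2 called, the gene with the largest difference are named. For the calling rule in the series' design text (1.5-fold in 6 of 9 array pairs, p under 0.05), array-pair folds and the unadjusted limma p stand in.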

Additional observations from a re-analysis of the deposited data

How the results depend on the processing

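In the 19 alternatives that gave one, the median log2 difference of the 10 genes (9 of them with the upper 40% of probe sets) stayed below 0, from -0.56 without A/J arrays 1 and 3 to -0.21 without DBA/2J array 1. S100b, Sox10, Sox2, Cdh19, Fabp7, L1cam, Foxd3 and Ncam1 kept their direction in all 19 fits that gave them a value. Where a result changed, the cause was not tested unless stated. With array weights, which gave DBA/2J array 1 a weight of 3.68 and DBA/2J array 2 one of 0.447, 4 of the 10 genes were called lower (Cdh19, S100b, Sox10 and Sox2), against 6.44% of all genes, and 1 higher (Ncam1), against 6.09%; 5 member probe sets, 3007 probe sets in all and 73 listed genes were called. By the stand-in for the stated rule, 1 gene was called lower (Cdh19), 1 higher (Ncam1) and 3 member probe sets, with 2725 probe sets and 60 listed genes. Cdh19 alone was called, 1 gene lower, with the mean over probe sets (adjusted p = 0.0474, 1.88% of all genes lower) and with 1 probe set per gene. Leaving out each array gave 345 to 1338 called probe sets against 883, 27 to 46 listed genes against 38, 0 to 1 member genes lower (1 without DBA/2J array 2, where 2.84% of all genes were called lower), 0 higher and 0 to 2 member probe sets. The count was 413, 397, 345, 1338 and 506 without A/J arrays 1 and 3 in turn and DBA/2J arrays 1, 2 and 3. Without A/J arrays 1 and 3 together, which leaves 1 A/J array assumed to vary like the others, 78 probe sets and 8 listed genes were called.

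The replicate block used the number shared in the titles of the arrays 2 and of the arrays 3. Deviations from the strain means correlated at -0.26 and 0.04 in these pairs, and from -0.26 to 0.20 in the pairs that share none. The labels do not say what the number marks, and a shared day or batch was not tested beyond this. As a fixed block, which leaves 1 residual degree of freedom, it called 0 probe sets and 0 listed genes, and the median was -0.26; as a random block it called 848 probe sets and 0 of the 10 genes.

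Directions turned only in Gfap and Erbb3, neither of them called. Gfap was at -0.18 with the fixed replicate block, -0.18 without A/J arrays 1 and 3, and from -0.047 to 0.44 on leaving out single arrays; with the upper 40% of probe sets it was not tested. Erbb3 was at -0.050 with quantile normalization, -0.0014 scaled to one median, -0.0010 with a pseudocount of 1, -0.28 with the fixed replicate block, -0.87 without A/J arrays 1 and 3, and from -0.65 to 0.86 on leaving out single arrays.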
